A study of Rattus norvegicus with 6 samples.

Results

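Elastic fibres and microfibrils are the stretchable part of the lung matrix, and the expression of 10 of their genes was examined in a rat model of pulmonary fibrosis (PF). The genes were chosen by name: Eln, Fbn1, Fbln1, Fbln2, Fbln5, Mfap2, Mfap4, Mfap5, Emilin1 and Ltbp2. A transcript belonged to a gene when the deposited table gave it that gene name. This found 30 transcripts of 9 genes among 70376 transcripts and 21655 gene names. No transcript carried the name Mfap4, which was therefore not analysed here. Of the 30 transcripts, 15 were annotated, 9 had at least 1 splice junction of an annotated form, 5 lay inside introns and 1 lay next to its gene.

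Sprague-Dawley rats of 7 weeks received a single intratracheal instillation of bleomycin at 7 mg/kg (PF model) or the same volume of saline (control), and lungs were taken after 28 days. Each group held 3 rats, with 1 library of rRNA-depleted total RNA per rat and paired reads of 150 bases, and no group carried a transgene. The sources used here do not give the sex of the rats or the lobe that was sampled. Expression was given as FPKM, the reads of a transcript scaled to its length in kilobases and to the size of the library.

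Elastic fibres consist of a core of crosslinked elastin on a scaffold of microfibrils, whose main component is fibrillin. Soluble tropoelastin is secreted by fibroblasts, myofibroblasts and smooth muscle cells, brought to the microfibrils by fibulins and crosslinked by lysyl oxidases. Microfibrils also hold the latent form of TGF-beta in the matrix. In the lung these fibres give the alveolar walls, airways and vessels their recoil, and they are made mainly during development and again during repair.

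The depth was similar in all libraries, with between 35778631 and 41112682 reads on transcripts as estimated from the deposited coverage. Across genes, which are not independent replicates, the correlation of log2(FPKM + 1) was between 0.963 and 0.971 for pairs of rats within a group and between 0.961 and 0.974 for pairs of a control and a model rat. By this measure no library stood apart. Model rat 3 stood apart in genes of cardiac muscle, which in lung lies around the pulmonary veins. The sum of 4 such genes was 25.5 FPKM in model rat 3 and between 5.79 and 10.4 FPKM in the other 5 rats. Of these, Myh6, a cardiac myosin heavy chain, was at 5.11 FPKM in model rat 3 and at most 0.0339 FPKM elsewhere. Genes of alveolar type 2 cells, the surfactant-making cells of lung, summed to between 4260 and 6560 FPKM in every library. Fibroblast markers (6 genes) summed to between 293.0 and 311.0 FPKM in control and between 317.0 and 411.0 FPKM in model lungs, and these ranges did not overlap. Col3a1 was the largest part of this sum in every rat, and the only gene of the 6 whose own values did not overlap between the groups. Of the 6, the collagen genes Col1a1, Col1a2 and Col3a1 had positive log2 fold changes, while Pdgfra (-0.06), Dcn (-0.13) and Lum (-0.10) had negative ones. The sum of 8 fibrosis genes was between 352.0 and 424.0 FPKM in control and between 438.0 and 509.0 FPKM in model lungs. Col3a1 was again the largest part in every rat and the only gene whose own values did not overlap, so the 2 sums are not separate results. Timp1 (-0.22) and Cthrc1 (-0.09) of this list had negative log2 fold changes and the other 6 had positive ones. Smooth muscle markers (6 genes) summed to between 106.0 and 141.0 against between 101.0 and 183.0 FPKM. Col3a1, which encodes a fibrillar collagen chain and is in both the fibroblast and the fibrosis list, was the only gene of these 5 lists with an unadjusted p of at most 0.05 in the test below. Its FPKM was 174.0, 178.0 and 154.0 in control and 189.0, 204.0 and 233.0 in model lungs (log2 fold change 0.30, 95% interval 0.03 to 0.58, adjusted p = 0.933, limma). In whole lung RNA, a change in the number of cells of a type and a change in RNA per cell cannot be told apart.

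Eln and Fbln1 were at a lower mean FPKM in model than in control lungs, and Fbn1, Ltbp2, Fbln5, Fbln2 and Mfap2 at a higher one. Mfap5 and Emilin1 had nearly equal means. No difference in an elastic fibre or microfibril gene held after adjustment over all genes. FPKM were summed over the transcripts of each gene and compared with limma, a linear model with variance shared between genes, on log2(FPKM + 1) over all 19645 gene names that were above 0 in at least 3 samples. All 9 genes were tested. None passed the pair of thresholds taken from the study, an unadjusted p of 0.05 or less together with group means at least 1 log2 unit apart, which 1.52% of all genes passed. Adjusted p values lay between 0.933 and 1.0 for the 9 genes, and 0.0102% of all genes had an adjusted p below 0.05. Eln was the only one of the 9 with an unadjusted p of at most 0.05, which 4.91% of all genes had. Control and model values overlapped for all 9 genes, and 10.7% of all genes did not overlap. Of the 9 log2 fold changes 7 were positive, where 47.5% of all genes had a positive value, and their median was 0.16, where the median over all genes was -0.01.

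**Figure D1:**
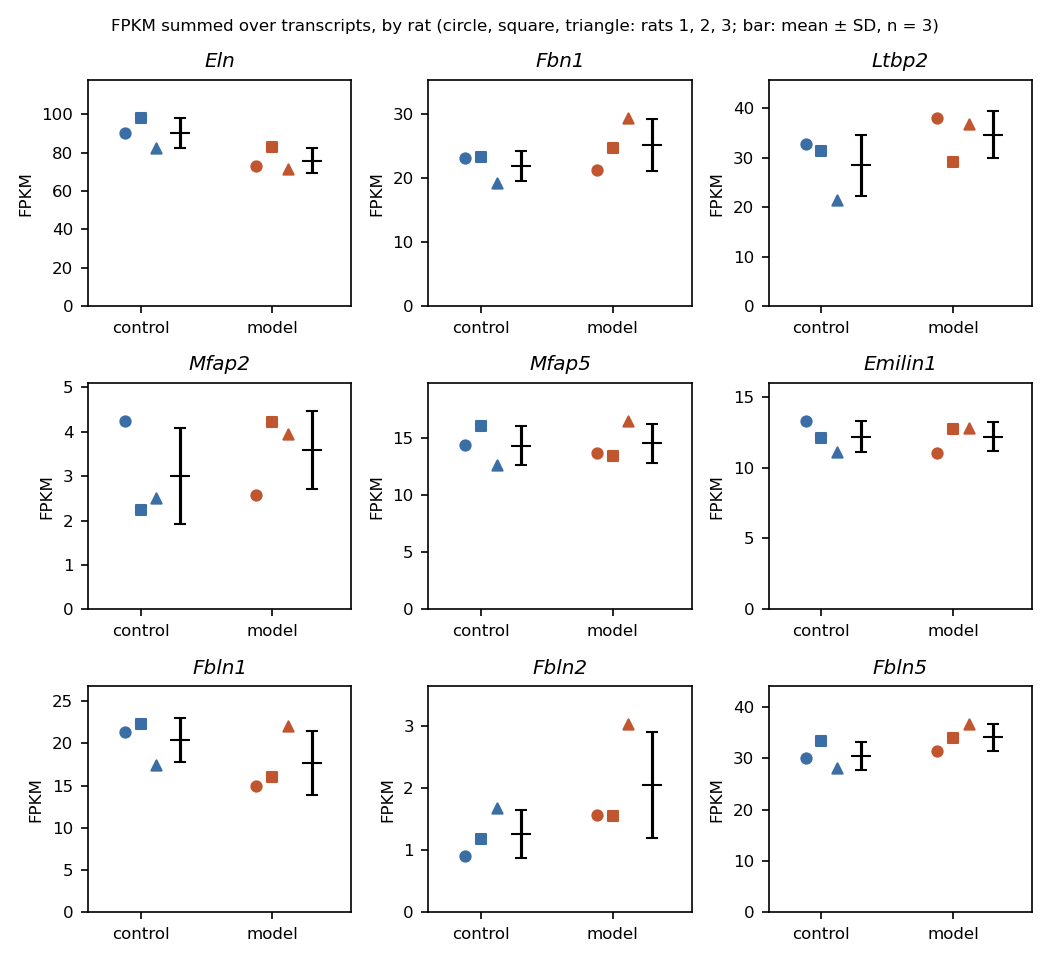
FPKM of each gene, summed over its transcripts, in the 3 control (blue) and 3 model (orange) rats, with the mean ± SD beside the points and every axis starting at 0. The groups overlapped for all 9 genes, and Fbln2 was at 3.04 FPKM in model rat 3, above the other 5 rats.

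Eln encodes tropoelastin, the soluble precursor of the elastin core. Its transcripts lie on the plus strand of chromosome 12 between 24978483 and 25021863, in the coordinates of the deposited table, whose genome build is not given in the sources used here. Eln had the highest FPKM of the 9 genes, above 98.4% of all genes tested, with between 10983.5 and 13787.4 estimated reads per library. It reached 90.0, 98.1 and 82.3 FPKM in the control rats. The model rats were at 72.8, 83.1 and 71.2 FPKM. Model rats 1 and 3 lay below every control, while model rat 2 lay just above control rat 3. The mean was 90.1 ± 7.88 in control and 75.7 ± 6.47 in model lungs (SD, n = 3), and the log2 fold change was -0.25 (standard error 0.10, 95% interval -0.49 to -0.01, adjusted p = 0.933, limma). The unadjusted p was above 0.05 when the transcripts inside introns were left out of the sum, with a log2 fold change of -0.23. It was also above 0.05 without control rat 1 (log2 fold change -0.25), control rat 2 (-0.19), model rat 1 (-0.22) or model rat 3 (-0.21).

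Fbn1 encodes fibrillin-1, the main building block of microfibrils, on the minus strand of chromosome 3 between 117569697 and 117766120. Its FPKM was 23.1, 23.3 and 19.2 in control and 21.3, 24.7 and 29.4 in model lungs. The highest value was that of model rat 3 and the lowest that of control rat 3, and the other 4 rats lay together in between. The log2 fold change was 0.19 (standard error 0.14, 95% interval -0.14 to 0.52).

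Ltbp2 encodes a latent TGF-beta binding protein that binds fibrillin-1 but, unlike its relatives, does not hold TGF-beta. It lies on the minus strand of chromosome 6 between 108500112 and 108596569. Control rats were at 32.8, 31.3 and 21.4 FPKM and model rats at 38.1, 29.2 and 36.8 FPKM. Control rat 3 was the lowest, and model rats 1 and 3 lay above every control. The log2 fold change was 0.29 with a standard error of 0.18 (95% interval -0.15 to 0.73).

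Mfap2 and Mfap5 encode the small microfibril-associated glycoproteins MAGP-1 and MAGP-2, which bind fibrillin. Mfap2, on chromosome 5 between 159534202 and 159539750, was low, with 4.25, 2.24 and 2.52 FPKM in control and 2.58, 4.23 and 3.96 FPKM in model lungs. Its estimated reads were between 98.6 and 203.8 per library, and its values crossed between the groups (log2 fold change 0.21, 95% interval -0.37 to 0.79). Mfap5, on chromosome 4 between 155313671 and 155336228, had 14.4, 16 and 12.6 FPKM in control and 13.7, 13.4 and 16.5 FPKM in model lungs. Its means were 14.4 ± 1.69 and 14.5 ± 1.69 FPKM (SD, n = 3), and the interval of the log2 fold change was -0.28 to 0.31.

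Emilin1 encodes a glycoprotein found where elastin meets microfibrils, on chromosome 6 between 26821255 and 26829068. Its FPKM was 13.3, 12.1 and 11.1 in control and 11.0, 12.7 and 12.8 in model lungs. Of the 9 genes it had the log2 fold change closest to 0 (0.00, standard error 0.10, 95% interval -0.24 to 0.25).

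The fibulins join elastin to microfibrils and to cells. Fbln5, which is needed for elastic fibre assembly, lies on the minus strand of chromosome 6 between 125644804 and 125723944. It had 30.0, 33.3 and 28 FPKM in control and 31.4, 34.0 and 36.7 FPKM in model lungs, so that model rats 2 and 3 lay above every control (log2 fold change 0.16, standard error 0.10, 95% interval -0.07 to 0.39). Fbln1, a fibulin of basement membranes and elastic fibres on chromosome 7 between 126096793 and 126176468, had 21.3, 22.3 and 17.4 FPKM in control and 15.0, 16.0 and 22.0 FPKM in model lungs. Model rats 1 and 2 were the lowest, and model rat 3 was close to control rat 2 (log2 fold change -0.21, standard error 0.16, 95% interval -0.60 to 0.19).

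Fbln2, a fibulin of vessel walls and of tissue under repair on chromosome 4 between 122835436 and 122895121, was the lowest of the 9 genes. Its FPKM was 0.912, 1.19 and 1.68 in control and 1.57, 1.55 and 3.04 in model lungs. The ratio of the group means, 1.63, was the furthest from 1 among the 9 genes, and model rat 3 alone was above control rat 3. The log2 fold change was 0.41 (standard error 0.23, 95% interval -0.14 to 0.96, adjusted p = 0.933, limma), and with a pseudocount of 0.1 in place of 1 it was 0.63 (95% interval -0.20 to 1.47).

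With a pseudocount of 1, the 95% intervals of all 9 genes lay within 1 log2 unit either side of 0, from -0.60 at the lowest bound to 0.96 at the highest. Exact permutation tests of the FPKM of single genes (two-sided, 3 rats against 3) gave p values between 0.2 and 1.0, and the smallest p that this design allows is 0.1.

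**Figure D2:**
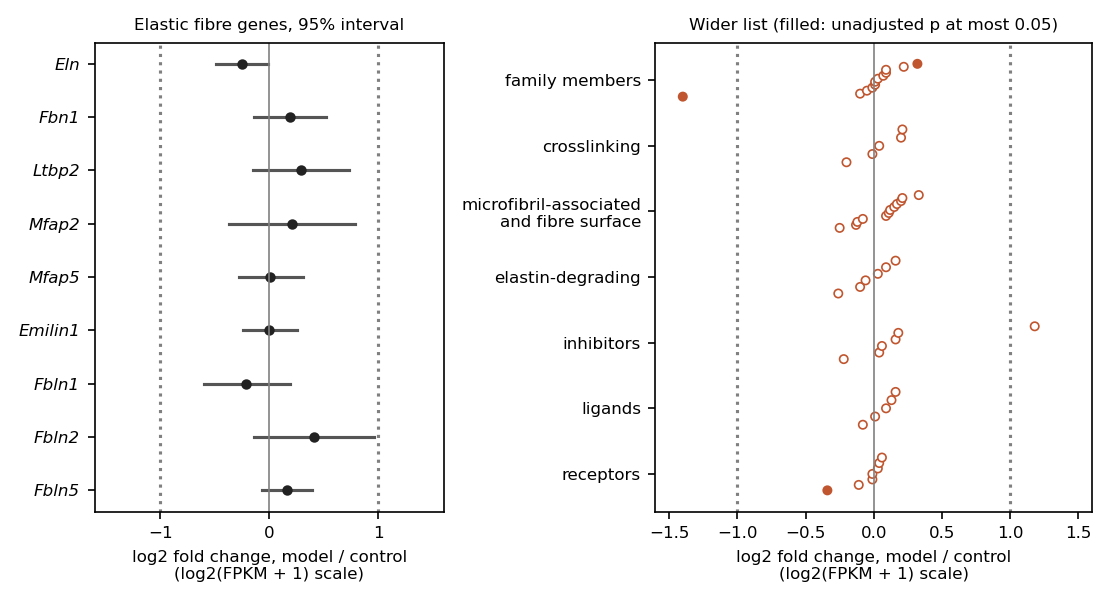
Log2 fold change of model over control on the log2(FPKM + 1) scale, for the 9 elastic fibre genes with 95% intervals from limma (left) and for 53 further genes of elastic fibre biology by role (right). Dotted lines mark 1 log2 unit, all 9 intervals lie between them, and filled points on the right have an unadjusted p of at most 0.05 (Efemp2, Ltbp3 and Itgav).

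By mean FPKM over the 6 rats the order was Eln (82.9), Fbln5 (32.2), Ltbp2 (31.6), Fbn1 (23.5), Fbln1 (19.0), Mfap5 (14.4), Emilin1 (12.2), Mfap2 (3.30) and Fbln2 (1.66). FPKM are per length, so these levels can be set side by side. Eln lay above every other gene in all 6 rats. The ranges over the rats overlapped for Fbln5 and Ltbp2, Ltbp2 and Fbn1, Fbn1 and Fbln1, Fbln1 and Mfap5, Mfap5 and Emilin1, and Mfap2 and Fbln2. Those of Emilin1 and Mfap2 did not overlap. Compared within each rat, the order held in all 6 rats, except that Fbln5 and Ltbp2 changed places. Fbln5 lay above Ltbp2 in control rats 2 and 3 and model rat 2, and below it in the others.

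The rats of a group differed among themselves over these genes. Each gene was expressed as its deviation from its own mean over the 6 rats in units of its SD. Averaged over the 9 genes, this score was 0.21, 0.22 and -0.89 in the control rats and -0.52, 0.08 and 0.90 in the model rats. Control rat 3 was the lowest rat for 4 of the 9 genes, and only 1 of its genes was above the gene's mean. Model rat 3 was the highest rat for 4 genes and above the mean for 8 of the 9, with Eln as the exception. Control rat 3 and model rat 3 also had the lowest and the highest sum of fibroblast markers (293.0 and 411.0 FPKM). The same held for alveolar type 2 genes (4260 and 6560 FPKM). Col3a1 and Sftpc were the largest parts of these sums. Of both lists, only these genes and Col1a1 were lowest in control rat 3 and highest in model rat 3. Pdgfra (29.8 FPKM) and Dcn (16.3 FPKM) were highest in control rat 3. Sftpb (903.0 FPKM), Abca3 (91.2 FPKM) and Lamp3 (66.7 FPKM) were lower in model rat 3 than in the other model rats. Model rat 3 had the highest sum of smooth muscle (183.0 FPKM) and cardiac muscle genes (25.5 FPKM). The part of these cell types in the values of the elastic fibre genes was not tested. Without model rat 3 the log2 fold change was 0.19 in place of 0.41 for Fbln2, 0.07 in place of 0.19 for Fbn1, 0.11 in place of 0.16 for Fbln5 and 0.24 in place of 0.29 for Ltbp2. For Fbln1 it was -0.36 in place of -0.21, with an unadjusted p of at most 0.05 then, and for Eln -0.21 in place of -0.25.

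**Figure D3:**
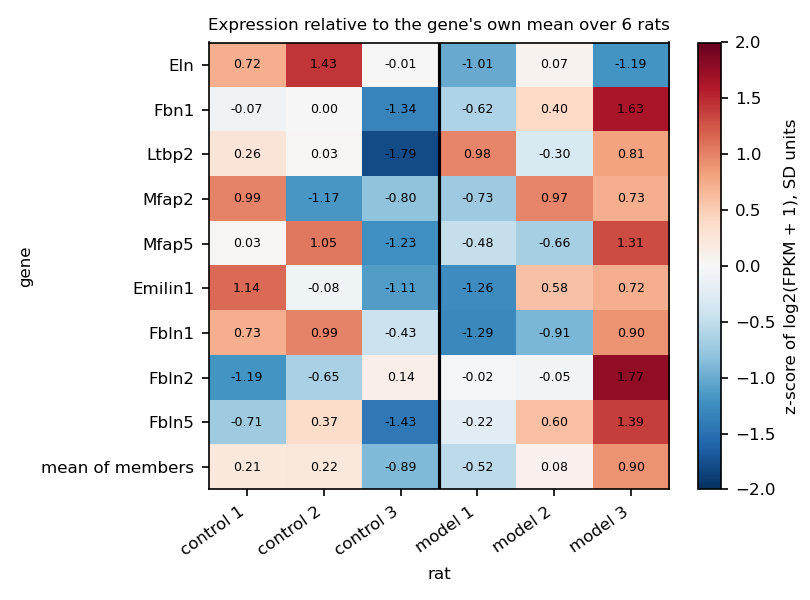
Deviation of log2(FPKM + 1) from each gene's mean over the 6 rats, in SD units, with the mean over the 9 genes in the last line. Control rat 3 averaged -0.89 and model rat 3 averaged 0.90, and the other 4 rats lay between -0.52 and 0.22.

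Among 8719 other genes with a mean of at least 5 FPKM, the smallest root mean square difference from this average profile over the 6 rats belonged to Maml1 and Kbtbd4 (0.36 each) and to Colec12, Slit3 and Brd1 (0.37 each). Slit3, a secreted guidance protein, had 23.2, 22.7 and 18.2 FPKM in control and 20.2, 21.2 and 26.4 FPKM in model lungs. All 5 had their lowest value in control rat 3 and their highest in model rat 3, like the average profile. They were chosen for likeness to that profile, so this is not a separate result.

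The single transcripts were tested in the same way over 64867 transcripts. Of the 30, 29 could be tested. MSTRG.8990.2, an antisense transcript inside Eln, was present in model rat 2 alone, at 4.31 FPKM. None of the 29 had an unadjusted p of at most 0.05, which 4.53% of all transcripts had, and none passed the threshold on fold change as well, which 2.98% passed. The smallest adjusted p was 0.945 (limma), and 0.0277% of all transcripts had an adjusted p below 0.05. All 29 overlapped between the groups, where 10.4% of all transcripts did not overlap. Their log2 fold change was positive for 19, where 44.6% of all transcripts had a positive value, and its median was 0.05, where the median over all transcripts was -0.02.

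In the deposited values Fbln1 was divided among 4 transcripts in a way that differed between rats. The annotated ENSRNOT00000047234 had 10.3 and 10.9 FPKM in control rats 1 and 2. It had 0.125 FPKM in control rat 3 and 0.148, 0.0291 and 0.134 FPKM in the model rats. It therefore held 48.1% and 48.9% of the Fbln1 FPKM in 2 rats and under 1% in the other 4. The assembled MSTRG.33607.3, which is longer than this transcript (4914 against 2787 bases) and ends at the same position, had 2.89, 3.28 and 7.99 FPKM in control and 5.94, 7.38 and 8.01 FPKM in model lungs. MSTRG.33607.4 had 2.75, 1.10 and 5.64 FPKM in control and 5.94, 4.56 and 8.33 FPKM in model lungs. For both, control rat 3 lay with the model rats. MSTRG.33607.4 (2691 bases) and ENSRNOT00000047234 have 17 exons each and end at the same position. Reads can belong to more than 1 of these overlapping transcripts, so their separate values are uncertain. The annotated ENSRNOT00000088042, which ends earlier in the gene, varied less, from 2.97 to 7.03 FPKM over the 6 rats. With all rats, the log2 fold change of ENSRNOT00000047234 was -2.27 (standard error 0.95, 95% interval -4.61 to 0.07, adjusted p = 0.945, limma). Without control rat 3 it was -3.39 (adjusted p = 0.054, limma), and MSTRG.33607.3 (log2 fold change 0.98, adjusted p = 0.445) and MSTRG.33607.4 (1.34, adjusted p = 0.946) also had an unadjusted p of at most 0.05 then. Control rat 3 was the control that lay with the model rats, so leaving it out widens these differences by construction. With any other rat left out, no Fbln1 transcript had an unadjusted p of at most 0.05.

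Ltbp2 had 6 transcripts, 3 of which held most of its FPKM. The annotated ENSRNOT00000031331 had 22.8, 19.3 and 13.5 FPKM in control and 3.98, 17.0 and 30.5 FPKM in model lungs. MSTRG.31162.2 was at 0 in control rats 1 and 3 and in model rat 3, and at 6.88, 16.1 and 7.30 FPKM in control rat 2 and model rats 1 and 2. MSTRG.31162.3 had 8.76, 4.30 and 6.54 FPKM in control and 14.3, 4.17 and 4.50 FPKM in model lungs. In model rat 1 the annotated transcript held 10.5% of the gene, where the other 5 rats had between 58.1% and 82.9%. These 3 transcripts have 35 exons each, the same start and end, and lengths of 6452, 6461 and 6925 bases, so most of their reads can belong to any of them and their separate values are uncertain. The sum over the gene depends on how such reads were divided only through these lengths.

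**Figure D4:**
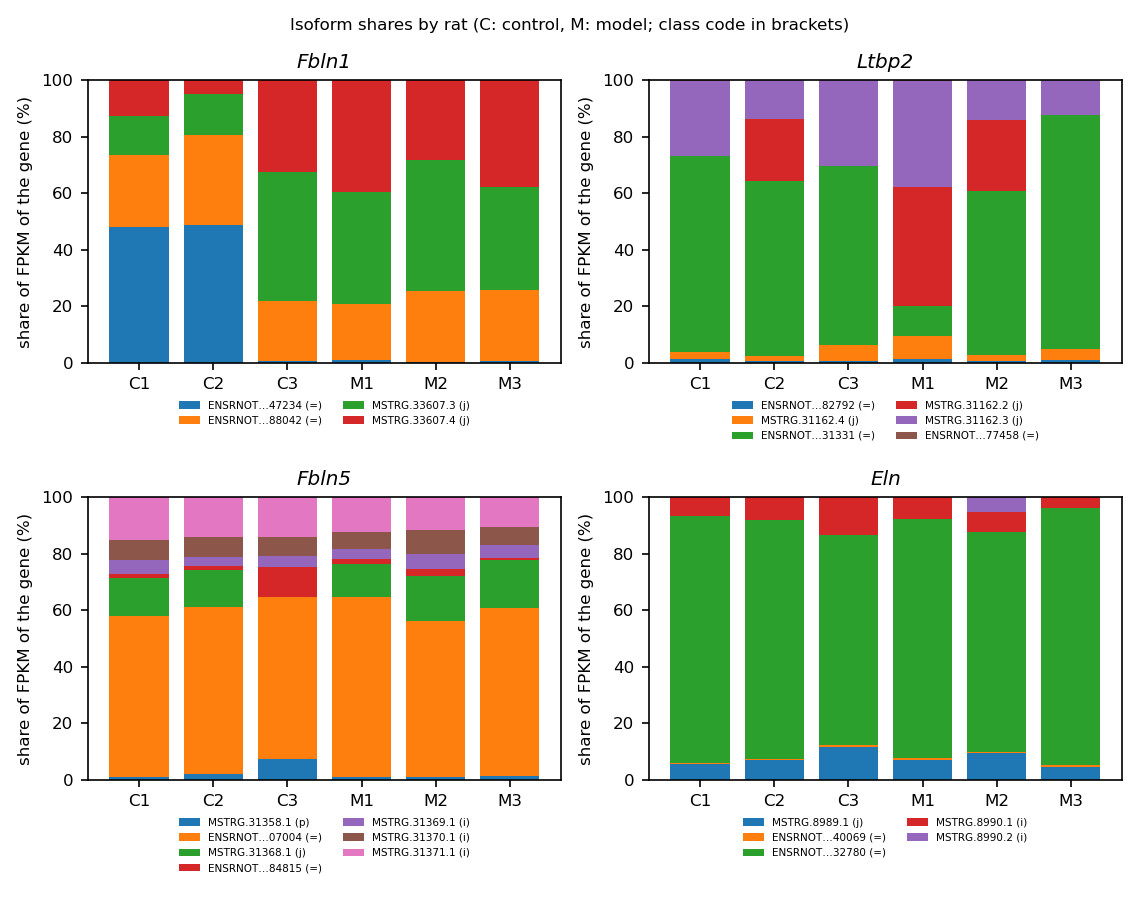
Share of each gene's FPKM held by each of its transcripts in the 6 rats, for Fbln1, Ltbp2, Fbln5 and Eln, with the class of the transcript in brackets (= annotated, j shares a junction, i intronic, p next to the gene). ENSRNOT00000047234 of Fbln1 holds 48.1% and 48.9% in control rats 1 and 2 and under 1% in the other 4 rats, and the annotated Ltbp2 transcript holds 10.5% in model rat 1. Where transcripts overlap, reads can belong to more than 1 of them, so the shares are uncertain.

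In Eln, the annotated ENSRNOT00000032780, with 34 exons, held between 74.2% and 90.9% of the FPKM. It had 78.6, 82.9 and 61.1 FPKM in control and 61.5, 64.5 and 64.7 FPKM in model lungs, with control rat 3 the lowest of all 6. MSTRG.8990.1, a single-exon transcript of 1115 bases inside the gene on the opposite strand, had 5.93, 7.82 and 11.1 FPKM in control and 5.62, 5.96 and 2.81 FPKM in model lungs. MSTRG.8989.1, a sense form of 23 exons that starts and ends earlier, had 5.02, 6.85 and 9.71 FPKM in control and 5.22, 7.86 and 3.27 FPKM in model lungs. Both were highest in control rat 3 and lowest in model rat 3. The library kit keeps strand according to the labels, but the sources used here do not say whether the counting used it, so reads of Eln and of this antisense transcript may not be separated.

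In Fbln5, the annotated ENSRNOT00000007004 had 17.0, 19.6 and 16 FPKM in control and 20.0, 18.8 and 21.8 FPKM in model lungs (log2 fold change 0.20, adjusted p = 0.945, limma). Its longer form MSTRG.31368.1 was at 0.0495 FPKM in control rat 3 and between 3.60 and 6.22 FPKM in the other 5 rats, while the shorter ENSRNOT00000084815 was at 2.96 FPKM in control rat 3 and between 0.355 and 0.747 FPKM elsewhere. The intronic MSTRG.31371.1 stayed between 3.90 and 4.71 FPKM in all 6 rats. In Fbn1, ENSRNOT00000056022 with 66 exons had 21.3, 19.9 and 19.2 FPKM in control and 21.3, 21.9 and 24.2 FPKM in model lungs. A form 5 bases shorter, MSTRG.23836.1, was at 0 in control rat 3 and model rat 1 and between 1.75 and 5.24 FPKM in the other 4. Nearly all Emilin1 FPKM belonged to the assembled MSTRG.30136.2 (between 98.7% and 99.9%), and nearly all Mfap5 FPKM to ENSRNOT00000089614 (between 99.4% and 99.9%). Mfap2 and Fbln2 had 1 transcript each. The other 9 transcripts had a mean below 1 FPKM or held under 10% of their gene in every rat, and none had an unadjusted p of at most 0.05.

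Promoter sequences from RefSeq, on the GRCr8 build and so in other coordinates than those of the deposited table, were found for 6 of the 9 genes (Fbln2, Fbln5, Fbn1, Ltbp2, Mfap2 and Mfap5). Each covers 250 bases before and 50 after the start of the gene. The GC box GGGCGG, the motif of Sp1-type factors, was searched on both strands and occurred in 4 of the 6, where 33.1% of all 33469 promoters held it. The TATA box TATAAA occurred in 0 of the 6 and in 14.2% of all promoters. The median GC content was 64.0% in the 6 and 51.7% in all promoters. The stretches of 30 bases below, 1 for each gene with a match, show the box in capitals (GGGCGG, or CCGCCC where it lies on the opposite strand), and a match is a description of sequence and not a binding site.
Fbln2, chr4:125261588-125261617, plus strand: gcgggacccgtgGGGCGGggtctcaaggcc
Fbln5, chr6:126742885-126742914, minus strand: acgcgccccgctCCGCCCcggggaggcccg
Ltbp2, chr6:110257435-110257464, minus strand: cgaaaaagcaggGGGCGGtttccaaaaata
Mfap2, chr5:158597666-158597695, plus strand: actccgggctagGGGCGGgcgtgggccttg
Fbn1, with a GC content of 70.7%, and Mfap5, with 51.7%, had no match in this window. The 4 genes with the box ranged in mean FPKM from 1.66 (Fbln2) to 32.2 (Fbln5).

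A wider list of 58 genes of elastic fibre biology was described with the same fit, of which 54 were found and 53 tested. In it, 1 gene was higher and 2 were lower with an unadjusted p of at most 0.05, where 2.14% and 2.77% of all genes were. The adjusted p of the 53 genes lay between 0.933 and 0.999, and their median log2 fold change was 0.04. The groups did not overlap for 2 genes that were higher and 4 that were lower, where this held for 4.82% and 5.87% of all genes.

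Efemp2 encodes fibulin-4, which brings lysyl oxidase to tropoelastin. It had 4.80, 5.08 and 4.22 FPKM in control and 5.32, 6.0 and 7.01 FPKM in model lungs, with every model rat above every control (log2 fold change 0.32, standard error 0.13, adjusted p = 0.933, limma). Lox, the first of the lysyl oxidases that crosslink elastin, had 17.4, 16.2 and 15.4 FPKM in control and 14.6, 12.8 and 15.0 FPKM in model lungs, with every model rat below every control (log2 fold change -0.20, 95% interval -0.42 to 0.03). Loxl1, which is required for elastin renewal, had 21.5, 21.3 and 14.8 FPKM in control and 17.8, 18.2 and 20.5 FPKM in model lungs (log2 fold change -0.01). None of the 5 lysyl oxidase genes had a p of at most 0.05.

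In the other 2 genes with such a p, most of the difference lay in transcripts other than their annotated and junction-sharing forms. Ltbp3, which binds latent TGF-beta, had 56.8, 124.0 and 48.2 FPKM in control and 42.7, 16.7 and 23.8 FPKM in model lungs (log2 fold change -1.40, standard error 0.45, adjusted p = 0.933). It was the only gene of the wider list past both thresholds. Of this, 4 assembled transcripts that only overlap its exons held 41.9, 110.0 and 35.2 FPKM in control and 27.4, 2.63 and 8.23 FPKM in model lungs. The annotated and junction-sharing transcripts of Ltbp3 had 14.9, 14.3 and 13.0 FPKM in control and 15.3, 14.0 and 15.6 FPKM in model lungs (log2 fold change 0.09, 95% interval -0.12 to 0.29). Itgav, the integrin alpha chain that binds fibrillin-1 and activates latent TGF-beta, had 32.5, 30.5 and 33.4 FPKM in control and 25.6, 26.4 and 23.7 FPKM in model lungs (log2 fold change -0.34, standard error 0.08, adjusted p = 0.933). Transcripts inside its introns accounted for 15.7, 13.3 and 14.5 FPKM of this in control and 9.13, 11.0 and 7.49 FPKM in model lungs. Without them the values were 16.8, 17.2 and 19.0 against 16.5, 15.4 and 16.2 FPKM (log2 fold change -0.13, 95% interval -0.32 to 0.06).

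Ltbp4, which supports fibulin-5 in elastogenesis, was more abundant than Eln in 4 of the 6 rats, at 96.4, 87.5 and 73.2 FPKM in control and 90.6, 88.4 and 122.0 FPKM in model lungs (log2 fold change 0.22, 95% interval -0.17 to 0.60). Fbn2, the fibrillin of the developing lung, was near 0 throughout, at 0.0718 FPKM or less. Mmp12, the macrophage elastase, had 0.842, 1.23 and 1.74 FPKM in control and 0.640, 0.917 and 1.09 FPKM in model lungs (log2 fold change -0.26, 95% interval -0.68 to 0.16). None of the 6 elastin-degrading enzymes tested, the 6 inhibitors or the 5 microfibril-held ligands had a p of at most 0.05. The fibulin, fibrillin, LTBP and EMILIN relatives (12 tested) included Efemp2 and Ltbp3, and of the 7 receptor genes 1, Itgav, had such a p.

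Assembled transcripts under other names within 100 kb of the 9 genes were also examined, since this distance was used in the study to assign target genes to lncRNAs. There were 70, of which 65 could be tested. Of these, 4 were higher and 4 lower in model lungs with an unadjusted p of at most 0.05, where 1.70% and 2.98% of all assembled transcripts were and 4.68% in either direction. Past both thresholds were 7, where 2.99% of all assembled transcripts were. None had an adjusted p below 0.05 with limma, where 0.0302% of all assembled transcripts did. The groups did not overlap for 4 that were higher and 6 that were lower, where this held for 3.68% and 7.04% of all assembled transcripts. Without control rat 3, 4 had an unadjusted p of at most 0.05 in place of 8, and all 4 were past both thresholds.

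At Fbn1, 2 transcripts inside or next to Dut differed in opposite directions. MSTRG.23831.1, intronic, 432 bases long and 52974 bases from Fbn1, had 2.60, 0.832 and 2.31 FPKM in control and 4.93, 3.66 and 4.47 FPKM in model lungs (log2 fold change 0.93, 95% interval 0.22 to 1.65, adjusted p = 0.945). MSTRG.23832.1, 42745 bases from Fbn1, had 2.80, 2.40 and 4.07 FPKM in control and 1.73, 1.38 and 0.628 FPKM in model lungs (log2 fold change -0.88, 95% interval -1.53 to -0.23, adjusted p = 0.945). The discussion of the study names MSTRG.23831.1 as an lncRNA that targets Fbn1 and regulates TGF-beta signalling. Fbn1 itself overlapped between the groups, and an action of this transcript on Fbn1 was not tested here. The smallest p near any of the 9 genes belonged to MSTRG.29395.1, next to Padi2 and 62277 bases from Mfap2, with 1.40, 2.08 and 2.87 FPKM in control and 0.572, 0.0702 and 0.0721 FPKM in model lungs (log2 fold change -1.33, adjusted p = 0.63). MSTRG.26699.1, intergenic and 2982 bases from Mfap5, had 0.945, 1.68 and 1.14 FPKM in control and 0.484, 0.762 and 0.398 FPKM in model lungs (log2 fold change -0.54, 95% interval -0.99 to -0.09). The other 4 were MSTRG.31359.1 and MSTRG.31359.3, isoforms of Tc2n near Fbln5 that differed in opposite directions, MSTRG.29398.1 near Mfap2 and MSTRG.31163.4, an isoform of Arel1 near Ltbp2.

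Circular RNAs of these genes were hardly detected in the same libraries, in which back-splice reads numbered between 2037 and 2964. Of 5216 circular RNAs, 5 came from the 9 genes. Of the 4 from Eln, 3 were intronic circular RNAs (ciRNAs) and 1 was an exonic circRNA, and the 1 from Fbn1 was an exonic circRNA. The 5 had 6 back-splice reads in all, 4 in control and 2 in model lungs, and at most 2 reads for any of them in a rat. None reached the 10 reads required for testing with edgeR, so a difference was not detectable at this depth. Of the wider list, 2 circRNAs reached 10 reads. The circRNA numbered circRNA3949, from Adamts17, had 0 reads in all control rats and 0, 5 and 7 reads in model rats 1, 2 and 3 (adjusted p = 0.526, edgeR). The other, circRNA2353 from Adamts10, had 0, 0 and 1 reads in control and 2, 3 and 4 reads in model rats (adjusted p = 0.99, edgeR). Both host genes encode secreted metalloproteinases of the ADAMTS family.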

How the data were processed

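Lung RNA of 3 control and 3 PF model rats was compared, grouped by sample title. Each library came from a separate rat, so p values measure the spread between rats. The members and lists were chosen with earlier results of these data known. For linear RNAs, reads were cleaned with Cutadapt, aligned with Bowtie2 and Tophat2 according to the methods of the study (the submitters' processing notes name HISAT2, StringTie and TopHat) and assembled with StringTie, and the authors deposited FPKM per transcript. Coverage, a signal per base without scaling, was deposited by the authors beside it, and reads were estimated as coverage times length divided by 150 bases. For circRNAs, the authors deposited raw back-splice counts from Tophat-fusion and CIRCexplorer, and also SRPBM, a scaled signal, which was not used.

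FPKM were summed over all transcripts of a gene name. Log2(FPKM + 1) of every gene, and separately of every transcript, with a value above 0 in 3 or more of the 6 samples entered a limma fit with a variance trend (limma 3.58.1, R 4.3.3), with Benjamini-Hochberg adjustment. This scale understates changes of low genes. CircRNAs with at least 10 reads (226) were compared with edgeR 4.0.16. Both fits were also run on simulated data, with the same spread for every gene and with circRNA counts higher than the real ones. As these settings differ from the data, the runs do not show how the fits perform here. Exact permutation tests covered all 20 regroupings of the rats.

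Named in full were all member genes, and transcripts with a mean of at least 1 FPKM that held at least 10% of their gene in any rat or had an unadjusted p of 0.05 or less. Of the wider list and nearby transcripts, those with such a p were named, beside Fbn2, Efemp2, Ltbp4, Lox, Loxl1 and Mmp12. MSTRG.8990.2, ENSRNOT00000084815, the circRNAs of the wider list and LOC102553715 were chosen after their values were seen. Alternatives were other pseudocounts, filters, scalings, sums, a replicate block and leaving out each rat. The sum without intronic and overlapping transcripts was added after the data were seen. Tables were handled with Python 3.11.15 and pandas 2.3.3.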

Additional observations from a re-analysis of the deposited data

How the results depend on the processing

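Among the 9 elastic fibre genes, no adjusted p was below 0.82 under any alternative, and no gene passed both thresholds. The count of these genes with an unadjusted p of at most 0.05 was 1, and it was 2 with the replicate block. It was 0 with a mean FPKM of at least 1, with median-of-ratios scaling and without the trend. It was also 0 with annotated transcripts only and with annotated and junction-sharing transcripts only. It was between 0 and 1 with each rat left out. For Eln, the p was also above 0.05 with TPM (log2 fold change -0.16). With annotated transcripts only, the log2 fold change changed sign for Emilin1 (-0.09), where they were at 0.156 FPKM or less, and for Ltbp2 (-0.39). For Fbln1 it moved from -0.21 to -1.15 with annotated transcripts only and to -0.06 with the length-weighted sum, with a p above 0.05 in each. Leaving out a rat gave between -0.07 and 0.09 for Mfap5 and between -0.05 and 0.07 for Emilin1. Fbln1 without model rat 3 (-0.36), Fbln2 with the block (0.41) and Fbln5 with TPM (0.25) had a p of at most 0.05. The count of member transcripts with such a p was 0, and it was 1 with a pseudocount of 0.1, TPM or the replicate block and between 0 and 5 with each rat left out (5 without control rat 3). Past both thresholds it was 0, and 1 with the pseudocount of 0.1 and between 0 and 4 with a rat left out. In the wider list, the 3 genes with such a p were 1 with annotated transcripts, the length-weighted sum or annotated and junction-sharing transcripts. The 1 past both thresholds was 0 with those 3 sums and between 0 and 1 with each rat left out (0 without control rat 2 or model rat 3). Near the members, leaving out a rat gave between 4 and 8 transcripts with such a p and between 4 and 7 past both thresholds. The cause of these changes was not tested, except that the 3 other sums leave out or weight transcripts by construction.

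Over all genes, the deviations of same-numbered rats from their group means correlated at 0.06, 0.03 and -0.08. Of the 6 rats, 3 correlated best with their own number. With 3 rats per group, these values cannot settle whether the replicate numbers pair the rats or mark a batch. Under the replicate block, 312 of all genes passed both thresholds against 298 without it. The count over all genes was 84 with a mean FPKM of at least 1 and 519 with annotated transcripts. The count over all transcripts was 1934, and 1066 with that filter. With TPM, 58.2% of the called genes were higher in the model, where 43.6% were with FPKM, and 50.8% against 41.1% of the called transcripts. The median log2 fold change of all genes was 0.0482 with TPM. For circRNAs, DESeq2, the block and leaving out rats were not run, and 0 of those from these genes passed the filter on reads. Without that filter, 0 of the 5 had a p of at most 0.05 with edgeR.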

Other observations

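LOC102553715, described in the deposited table as similar to microfibril-associated glycoprotein 4, is a gene that the list did not name. It carries 5 transcripts at 2 loci on chromosome 10, 3 of them annotated. Its summed FPKM was 777.0, 708.0 and 434.0 in control and 713.0, 666.0 and 901.0 in model lungs, higher than Eln in every rat. As for the elastic fibre genes on average, control rat 3 was the lowest and model rat 3 the highest, and the groups overlapped (log2 fold change 0.28, standard error 0.26, adjusted p = 0.934, limma). The annotated ENSRNOT00000057880, from 49000973 to 49003931, ranged from 248.0 to 403.0 FPKM. The 4 transcripts of the other locus traded places, and ENSRNOT00000078231 was at 336.0, 298.0, 302.0 and 397.0 FPKM in control rats 1 and 2 and model rats 2 and 3, listed at 0 in control rat 3 and at 0.0307 FPKM in model rat 1. These 4 overlap one another, so reads can belong to more than 1 of them and their separate values are uncertain.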
